A study of Mus musculus with 9 samples.

Results

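The genes described here are the 40 genes of DNA replication and nucleotide synthesis that were followed through RNA-seq of BCR/ABLp185+ transformed mouse bone marrow cells. They were chosen by name and not by their level: proteins that license and fire replication origins, the helicase and its activators, the replicative polymerases with their clamp and clamp loader, the proteins that cover or join DNA strands, and 4 enzymes that supply deoxynucleotides. All 40 were found by symbol among the 50686 genes of the count tables, and all 40 passed the filter on low counts. The cells came from bone marrow of C57BL/6N mice, carried BCR/ABLp185, the oncogenic tyrosine kinase of acute leukemia, through a retrovirus, and grew as immortalized lines in medium with serum. The wt line had both Stat5 genes, the Stat5a-/- line came from mice with a complete knockout of Stat5a, and the Stat5b-/- line from mice with a complete knockout of Stat5b. The 3 libraries of each genotype were technical replicates, so that p-values measure the spread between libraries of a line and the comparisons are between 3 lines. The description field of the knockout samples reads as wt lines, in conflict with their titles and genotypes, which were used here.

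The 9 libraries held between 11948136 and 19016396 counted reads, and libraries of 1 line were further apart than counting error allows. A level below is a count scaled to a common library size after TMM normalization, written CPM. Stat5a lay at 36.0 to 48.2 CPM in wt and at 11.8 to 13.6 in the Stat5a-/- line. Stat5b lay at 103 to 107 in wt and at 58.5 to 72.3 in the Stat5b-/- line, so that reads of both knocked-out genes were still counted. Of 12 B lineage markers, 10 exceeded 10 CPM in every library, whereas Rag1 and Rag2 were at or below 1.09 CPM in every knockout library. In each knockout line 7 of the 12 were called higher than in wt (beside 24.2% of all genes in Stat5b-/- and 19.8% in Stat5a-/- cells), while 3 were called lower in Stat5b-/- (beside 22.0%) and 2 in Stat5a-/- cells (beside 16.3%), and the summed level was 5652 to 5801 CPM in wt, 7595 to 8119 in Stat5a-/- and 7268 to 7921 in Stat5b-/- libraries. Myeloid and erythroid markers were nearly absent, with 9 of 12 and 7 of 10 genes under 1 CPM in every library and Ctsg and Pf4 at 0. The lines also held T cell transcripts. The summed level of 18 T cell markers was 899 to 1222 CPM in wt, 1573 to 1822 in Stat5a-/- and 2030 to 2870 in Stat5b-/- libraries, with no overlap between the lines.

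Before a cell divides, the origin recognition complex with Cdc6 and Cdt1 loads a ring of Mcm2 to Mcm7 onto DNA, a step called licensing. Cdc45 and the GINS proteins then turn the ring into an active helicase, primase with polymerase alpha starts the new strands, and polymerases delta and epsilon extend them on the Pcna clamp that the Rfc proteins load. Many of these genes are targets of E2F factors, and in cells driven by an oncogene their transcripts are commonly taken as a sign of proliferation.

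Most replication genes differed little from wt in both knockout lines, while a few single members changed more, and in opposite directions. Orc1 and Cdc6, which license origins, and Tk1, the thymidine salvage kinase, were lower in both knockout lines. Mcm2, a subunit of the helicase ring, and Tyms, which makes thymidylate de novo, were higher in both. Pola2 and Pole2, accessory subunits of polymerases alpha and epsilon, fell in the Stat5b-/- line, whereas Pold1, Rfc3, Rfc5 and Rpa1 rose in it. The summed level of the 40 genes averaged 6895 ± 165 CPM over the 3 wt libraries (SD), 6327 ± 125 over those of Stat5a-/- and 6695 ± 344 over those of Stat5b-/- cells. In this bulk RNA a smaller number of cycling cells and less RNA per cell cannot be told apart.

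A gene was called at a Benjamini-Hochberg adjusted p under 0.05 in edgeR's quasi-likelihood test over 13852 genes. In Stat5b-/- against wt 17 of the 40 members were called (42.5%), beside 46.2% of all genes tested. Among them 6 were higher, beside 24.2% of all genes, and 11 were lower, beside 22.0%. In Stat5a-/- against wt 13 members were called (32.5%), beside 36.0% of all genes, 2 of them higher (background 19.8%) and 11 lower (background 16.3%). Between the knockout lines 9 members were called (22.5%), beside 33.9% of all genes, with 7 higher in Stat5b-/- (background 16.4%) and 2 lower (background 17.5%). The shares called in either direction lay under those of all genes. The lower calls, 27.5% of the members in each comparison with wt, lay above the 22.0% and 16.3% of all genes. In Stat5b-/- against wt this excess was lost without wt replicate 3, with 7 of the 40 members beside 18.0% of all genes. With summed T cell markers as a covariate it was lost in both comparisons. No member and 2 members were then lower, beside 4.84% and 10.9% of all genes.

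The changes were also small. With a fold above 2 required as well, Tyms was the 1 member still called higher in Stat5b-/- against wt, beside 10.6% of all genes, and 0 were lower, beside 8.44%, for 19.1% of all genes in either direction. No member passed both limits in Stat5a-/- against wt, beside 7.75% of all genes higher and 6.49% lower (14.2% together), or between the knockout lines, beside 4.81% higher and 6.6% lower (11.4% together). Without the fold limit those comparisons gave the 13 and 9 calls above. The median log2 fold change of the members was -0.14 in Stat5b-/- against wt and -0.21 in Stat5a-/- against wt, beside 0.023 and 0.010 over all genes. Between the lines, Stat5b-/- against Stat5a-/-, it was 0.13, beside 0.020. The median in Stat5b-/- against wt was -0.06 without Stat5b-/- replicate 1, the library whose members lay lowest in its line, with a median deviation of -0.132 on the log2 scale. An offset for the GC content of the genes, with which libraries of a line varied, gave 19 lower members in Stat5a-/- against wt and 14 in Stat5b-/- against wt, beside 22.0% and 25.8% of all genes lower in that fit. Several members not called here passed the threshold under at least 1 alternative. In Stat5b-/- against wt they were Orc6, Cdt1, Gins1 and Gins3. In Stat5a-/- against wt they were Cdt1, Mcm3, Gins2, Pola2, Prim1, Pold1, Pold2, Pole, Rfc2, Rfc4 and Rfc5. Between the knockout lines they were Orc1, Mcm3, Mcm5, Gins1, Gins3, Pola1, Prim1, Pold1, Pcna and Rfc4.

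**Figure D1:**
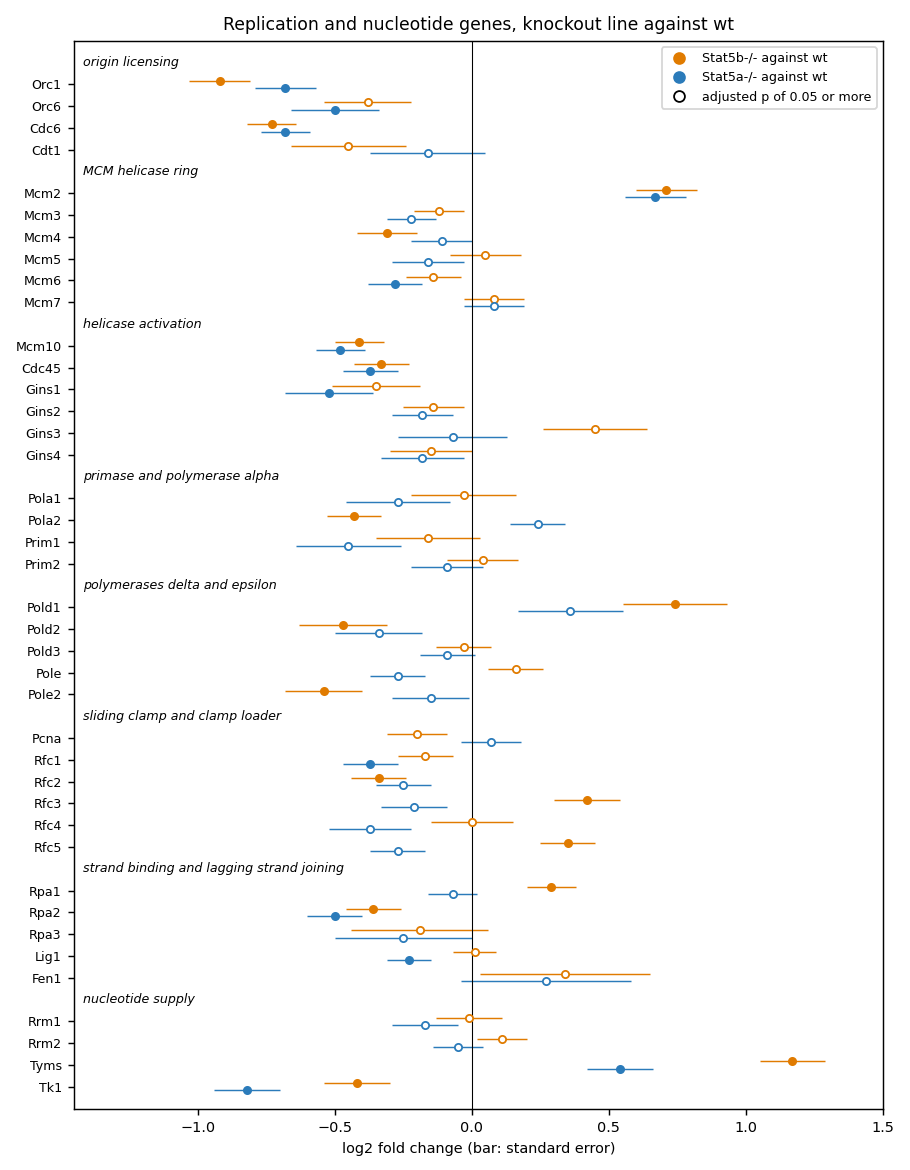
Log2 fold change (horizontal axis) of the 40 members, grouped by role, in the Stat5b-/- and the Stat5a-/- line against wt, 3 libraries each, with bars of 1 standard error; filled points passed an adjusted p of 0.05. Most points lie within 0.5 of 0, and Orc1 (-0.92 and -0.68), Cdc6, Mcm2 and Tyms (1.17 and 0.54) stand away from it in both lines. Pold1 (0.74) and Pole2 (-0.54) do so in Stat5b-/- alone, and Tk1 (-0.82) and Gins1 (-0.52) in Stat5a-/- alone, where Orc6 and Rpa2 lie at -0.50.

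Origin licensing had the lowest median of the 8 roles in both comparisons with wt, at a log2 fold change of -0.59 in each. Orc1, the ATPase subunit of the origin recognition complex (ENSMUSG00000028587.18, chr4:108579423-108614833, GRCm38), measured 44.0, 47.9 and 47.6 CPM in wt. It measured 30.1, 26.9 and 30.3 CPM in the Stat5a-/- and 22.6, 26.4 and 24.6 CPM in the Stat5b-/- libraries. Every knockout library was below every wt library, and the Stat5b-/- libraries lay below the Stat5a-/- ones. Relative to wt, the log2 fold change was -0.92 ± 0.11 (SE, edgeR adjusted p = 1.31e-05) in Stat5b-/- and -0.68 ± 0.11 (edgeR adjusted p = 0.000223) in Stat5a-/- cells. The direct difference between the knockout lines, -0.24 ± 0.11, did not pass (edgeR adjusted p = 0.101).

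Cdc6, the ATPase that joins Orc to load the helicase ring (chr11:98907801-98923940), measured 79.6, 81.9 and 86.1 CPM in wt. Its Stat5a-/- libraries held 51.3, 52.3 and 51.3 CPM, and its Stat5b-/- libraries 45.6, 51.6 and 51.7. The knockout libraries lay in a narrow band far below wt. Log2 fold changes were -0.73 ± 0.09 (edgeR adjusted p = 3.32e-05) in Stat5b-/- and -0.68 ± 0.09 (edgeR adjusted p = 8.12e-05) in Stat5a-/- cells. Orc6, another subunit of the complex, fell in Stat5a-/- cells (-0.50 ± 0.16, edgeR adjusted p = 0.0245), a call lost without wt replicate 2 or 3 or Stat5a-/- replicate 3, and had -0.38 ± 0.16 in Stat5b-/- cells (edgeR adjusted p = 0.0683). The latter passed with DESeq2, RLE normalization, no filter, only the 2 genotypes compared, without Stat5a-/- replicate 1 or 3 or Stat5b-/- replicate 3, and with the GC offset (-0.37, edgeR adjusted p = 0.00885). Cdt1, the loading factor that geminin blocks, ranged from 155 to 225 CPM in wt and 95.8 to 171 in Stat5b-/- libraries, which overlapped, and was called in neither line with all libraries and no offset (log2 -0.45 in Stat5b-/- cells, edgeR adjusted p = 0.101). In Stat5b-/- cells Cdt1 passed without Stat5b-/- replicate 1 (-0.68, edgeR adjusted p = 0.0324), without Stat5a-/- replicate 3, with no filter on low counts and with an offset for GC content (edgeR adjusted p = 0.00838), which also gave a call in Stat5a-/- cells (-0.34, edgeR adjusted p = 0.041).

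The promoters of the genes with the largest fall and rise against wt in each line are shown, 250 bases before the RefSeq start on the gene's strand (GRCm38.p6). Orc1 fell most in Stat5b-/- (chr4:108579204-108579453, plus strand), Tyms rose most in it (chr5:30073626-30073875, minus strand), Tk1 fell most in Stat5a-/- (chr11:117826015-117826264, minus strand), and Mcm2 rose most in it (chr6:88898781-88899030, minus strand). Capitals mark matches to the motifs described next.
Orc1: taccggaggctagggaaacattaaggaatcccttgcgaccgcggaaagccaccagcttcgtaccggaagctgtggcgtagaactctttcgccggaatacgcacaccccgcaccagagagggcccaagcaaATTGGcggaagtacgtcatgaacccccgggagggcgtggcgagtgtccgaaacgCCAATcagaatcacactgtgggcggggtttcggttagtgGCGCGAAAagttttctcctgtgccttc
Tyms: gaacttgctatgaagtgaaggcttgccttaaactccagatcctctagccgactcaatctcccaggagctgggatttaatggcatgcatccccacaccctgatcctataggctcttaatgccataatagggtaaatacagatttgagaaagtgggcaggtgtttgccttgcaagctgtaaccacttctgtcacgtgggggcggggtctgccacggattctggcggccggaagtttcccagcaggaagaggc
Tk1: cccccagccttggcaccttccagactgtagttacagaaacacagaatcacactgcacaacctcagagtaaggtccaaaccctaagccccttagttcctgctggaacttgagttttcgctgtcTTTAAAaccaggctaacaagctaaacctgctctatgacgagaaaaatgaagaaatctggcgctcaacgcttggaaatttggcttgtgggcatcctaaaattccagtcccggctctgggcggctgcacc
Mcm2: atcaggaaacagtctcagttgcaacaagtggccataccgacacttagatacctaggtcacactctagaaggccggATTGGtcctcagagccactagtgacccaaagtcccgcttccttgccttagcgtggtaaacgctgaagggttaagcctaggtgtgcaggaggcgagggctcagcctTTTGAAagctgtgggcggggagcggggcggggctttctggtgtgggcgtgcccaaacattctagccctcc

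Motifs were searched as letters on both strands, in a window from 250 bases before to 50 after the start. The E2F spellings were TTTCCCGC, TTTGGCGC, TTTCGCGC and TTTGCCGC, the CCAAT box was CCAAT, and the cell cycle homology element was TTTGAA or TTTAAA. E2F spellings can overlap their own reverse complements, and a promoter was counted once. RefSeq windows were matched for 33 members; Mcm4, Gins1, Gins2, Gins4, Prim2, Pole and Rfc2 were not matched. An E2F spelling was present in 14 of the 33 (42.4%), beside 2.6% of 27025 genes. CCAAT was present in 63.6% beside 41.1%, and the cell cycle homology element in 24.2% beside 30.6%.

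The E2F match of Orc1, GCGCGAAA, lay 27 to 20 bases before the start, and its promoter held CCAAT boxes on both strands. No E2F spelling was found in the windows of Tyms, Tk1 or Mcm2. The other members with an E2F spelling were Cdc6, Cdt1, Mcm3, Mcm5, Mcm6, Mcm7, Gins3, Pola1, Pold1, Pold3, Pole2, Rfc3 and Lig1. In Stat5b-/- against wt 2 of the 14 genes with a match were higher and 3 lower, with log2 fold changes from -0.92 to 0.74, and of the 19 without one 4 were higher and 6 lower, from -0.47 to 1.17. Over all genes tested, 24.2% were higher and 22.0% lower. In Stat5a-/- against wt the counts were 0 higher and 4 lower with a match, and 2 higher and 6 lower without, beside 19.8% higher and 16.3% lower over all genes. A match describes letters and not a bound factor.

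Within the helicase ring, 1 subunit moved apart from the others. Mcm2 (chr6:88883474-88898780) measured 308, 272 and 278 CPM in wt, 446, 412 and 510 in Stat5a-/- and 476, 502 and 426 in Stat5b-/- libraries. All knockout libraries exceeded all wt libraries. On the log2 scale Mcm2 rose by 0.71 ± 0.11 (edgeR adjusted p = 0.000155) in Stat5b-/- and 0.67 ± 0.11 (edgeR adjusted p = 0.000293) in Stat5a-/- cells, and the lines differed by 0.04 ± 0.11 (edgeR adjusted p = 0.816). Of the other 5 subunits, none rose. Mcm4 fell in Stat5b-/- cells, from 481 to 521 CPM in wt to 360 to 463 (log2 -0.31 ± 0.11, edgeR adjusted p = 0.027), and its call was lost without wt replicate 1 or 3 or Stat5b-/- replicate 1 or 3. Mcm6 fell in Stat5a-/- cells (-0.28 ± 0.10, edgeR adjusted p = 0.0421), a call lost without any 1 of 6 libraries: the 3 of wt, Stat5a-/- replicates 2 and 3, and Stat5b-/- replicate 2. Mcm3, Mcm5 and Mcm7 had log2 fold changes from -0.22 to 0.08 and were not called, though Mcm3 passed in Stat5a-/- cells with DESeq2 and with the GC offset (-0.33, edgeR adjusted p = 0.00224).

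The ring subunits assemble in equal numbers, and their transcripts were compared per length (TPM, reads per base of the gene model scaled to a common total) inside each library, a measure chosen after the values were seen. Mcm2 made up 8.14%, 7.69% and 7.66% of the summed level of the 6 subunits in wt. Its share was 12.9%, 12.4% and 14.0% in Stat5a-/- and 14.1%, 13.2% and 12.4% in Stat5b-/- libraries. In wt Mcm2 was thus the least abundant ring transcript per length. In the knockout lines it lay above Mcm5 and Mcm7 on average, which held 10.7% and 11.8% in Stat5a-/- and 12.1% and 11.6% in Stat5b-/- cells. This order depends on the gene model lengths, 6956 bases for Mcm2, 3993 for Mcm5 and 4426 for Mcm7. By mean CPM, Mcm2 lay above Mcm5 and Mcm7 in wt too (286 beside 237 and 248). Of the exon bases of Mcm7, 12.6% are shared with other genes and gave no counts, yet enter its length. Mcm4 had the highest mean share in each line, at 26.9% in wt, 26.3% in Stat5a-/- and 22.3% in Stat5b-/- cells.

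**Figure D2:**
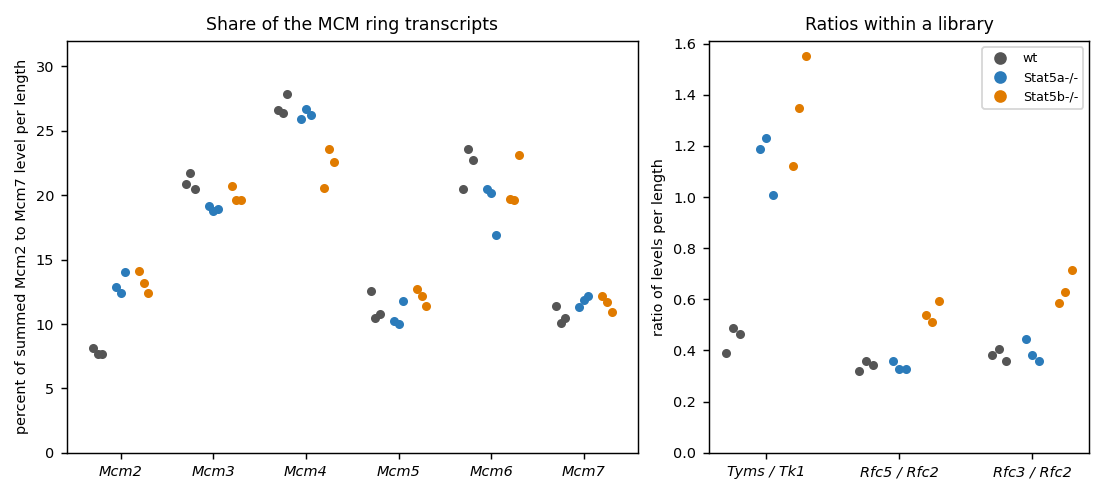
Left, share (percent) of each MCM ring transcript in the summed level per length of Mcm2 to Mcm7; right, ratios of levels per length within a library; each point is 1 of 3 libraries of wt, Stat5a-/- or Stat5b-/-. Mcm2 lies at 7.66% to 8.14% in wt and at 12.4% to 14.1% in the knockout lines. Tyms over Tk1 lies at 0.39 to 0.487 in wt and at 1.01 to 1.55 in the knockout lines. The Rfc ratios are higher in Stat5b-/- libraries alone. Shares and ratios were chosen after the values were seen.

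Of the 6 helicase activation genes, 2 fell in Stat5b-/- (beside 22.0% of all genes) and 3 in Stat5a-/- cells (beside 16.3%). Gins3 had 0.45 in Stat5b-/- cells (edgeR adjusted p = 0.0783) and passed without Stat5b-/- replicate 1 (0.64, edgeR adjusted p = 0.00387). Mcm10, which helps the helicase to fire, measured 147, 137 and 138 CPM in wt, 104, 92.3 and 107 in Stat5a-/- and 109, 109 and 101 in Stat5b-/- libraries. On the log2 scale Mcm10 changed by -0.41 ± 0.09 (edgeR adjusted p = 0.0033) in Stat5b-/- and -0.48 ± 0.09 (edgeR adjusted p = 0.00135) in Stat5a-/- cells, with no overlap of the libraries. Cdc45, the factor that joins MCM and GINS into the active helicase, measured 95.1, 94.7 and 101 CPM in wt, 76.3, 75.4 and 73.8 in Stat5a-/- and 70.4, 77.3 and 84.3 in Stat5b-/- libraries. It fell by 0.33 ± 0.10 on the log2 scale in Stat5b-/- (edgeR adjusted p = 0.0128, a call lost without wt replicate 3) and by 0.37 ± 0.10 in Stat5a-/- cells (edgeR adjusted p = 0.00835).

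The GINS proteins form a ring companion of 4 subunits. Gins1 fell in Stat5a-/- cells, with 26.1, 23.4 and 21.1 CPM beside 32.8, 34.5 and 34.1 in wt (log2 -0.52 ± 0.16, edgeR adjusted p = 0.0232), a call lost without wt replicate 2 or 3 or Stat5a-/- replicate 2. Its Stat5b-/- libraries spread from 19.1 to 31.7 CPM and were not called. Gins3, the least abundant of them, was at 8.09, 14.2 and 13.9 CPM in Stat5b-/- and 8.5, 9.44 and 8.55 in wt libraries, so that replicate 1 lay apart from the other two (log2 0.45 ± 0.19, edgeR adjusted p = 0.0783), and without that library it was called. Gins2 and Gins4 lay between -0.18 and -0.14 and were not called, though Gins2 passed in Stat5a-/- cells with the GC offset (-0.30, edgeR adjusted p = 0.00895). Of the exon bases of Gins2, 67.3% are shared with Gse1 and gave no counts, since the counting dropped reads that fit more than 1 gene.

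The 9 members called between the knockout lines act in strand synthesis or nucleotide supply. Without Stat5b-/- replicate 1 the helicase activators Gins1 and Gins3 were called as well, and with an offset for GC content in the fit Orc1, Mcm3, Mcm5 and Gins3 were, so the roles of the called members depended on the fit. Pola2, the regulatory subunit of polymerase alpha (chr19:5940543-5964206), measured 172, 160 and 168 CPM in wt, 190, 190 and 209 in Stat5a-/- and 128, 132 and 112 in Stat5b-/- libraries. The 3 lines did not overlap, with wt in the middle. Pola2 fell in Stat5b-/- cells (log2 -0.43 ± 0.10, edgeR adjusted p = 0.00268), had 0.24 ± 0.10 in Stat5a-/- cells (edgeR adjusted p = 0.0719), and differed between the knockout lines by -0.67 ± 0.10 (edgeR adjusted p = 0.000168). The catalytic subunit Pola1 and the primase subunits Prim1 and Prim2 were not called in any comparison, and their Stat5b-/- libraries spread widely, from 59.9 to 113 CPM for Prim1. Without Stat5b-/- replicate 1, the lowest of them, Pola1 and Prim1 were higher in Stat5b-/- than in Stat5a-/- cells, by 0.44 and 0.49 in place of 0.24 and 0.29 (edgeR adjusted p = 0.0489 and 0.0312), and Prim1 was lower in Stat5a-/- cells than in wt (-0.47, edgeR adjusted p = 0.0181). Prim1 passed in that comparison also with no filter, with only the 2 genotypes compared, without Stat5b-/- replicate 3 and with the GC offset (-0.35, edgeR adjusted p = 0.0439).

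Pold1, the catalytic subunit of polymerase delta, measured 182, 130 and 138 CPM in wt, 179, 161 and 239 in Stat5a-/- and 299, 268 and 185 in Stat5b-/- libraries. The gene rose in the Stat5b-/- line (log2 0.74 ± 0.19, edgeR adjusted p = 0.00666), although the lowest Stat5b-/- and the highest wt library nearly met, and had 0.36 ± 0.19 in Stat5a-/- cells (edgeR adjusted p = 0.165). Pold2, an accessory subunit, fell in Stat5b-/- cells (-0.47 ± 0.16, edgeR adjusted p = 0.0334), with 143 to 214 CPM in Stat5b-/- and 213 to 285 in wt libraries, which overlapped. That call was lost without wt replicate 1 or 3 or Stat5b-/- replicate 2 or 3. Pole2, the second subunit of polymerase epsilon, measured 99.6, 103 and 93.2 CPM in wt, 92.8, 98.0 and 75.2 in Stat5a-/- and 54.0, 71.1 and 78.7 in Stat5b-/- libraries.

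Pole2 thus fell in Stat5b-/- cells (log2 -0.54 ± 0.14, edgeR adjusted p = 0.00694) and not past the threshold in Stat5a-/- cells (-0.15 ± 0.14, edgeR adjusted p = 0.437). The catalytic subunit Pole went the other way between the knockout lines, with 119, 127 and 144 CPM in Stat5a-/- and 168, 184 and 171 in Stat5b-/- libraries, which did not overlap. Pole was 0.43 ± 0.10 higher in Stat5b-/- on the log2 scale (edgeR adjusted p = 0.00677), while its wt libraries lay at 144 to 170 CPM. Against wt, Pole had 0.16 in Stat5b-/- (edgeR adjusted p = 0.231) and -0.27 in Stat5a-/- cells (edgeR adjusted p = 0.0588). The latter passed with DESeq2, with an offset for GC content (edgeR adjusted p = 0.0077) and without Stat5b-/- replicate 1 (edgeR adjusted p = 0.0467) or Stat5a-/- replicate 3. Pold3 was not called, with log2 fold changes of -0.03 and -0.09 against wt.

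The clamp loader is a ring of Rfc1 to Rfc5 in equal parts. Rfc3 measured 61.2, 58.2 and 57.2 CPM in wt, 55.9, 48.7 and 48.1 in Stat5a-/- and 65.3, 82.7 and 87.9 in Stat5b-/- libraries. Rfc5 measured 65.7, 66.9 and 70.8 CPM in wt, 58.2, 53.9 and 57.0 in Stat5a-/- and 77.3, 87.2 and 94.2 in Stat5b-/- libraries. For both genes the order was Stat5a-/-, wt, Stat5b-/-, with no overlap between lines. Against wt, Rfc3 rose by 0.42 ± 0.12 (edgeR adjusted p = 0.0118, a call lost without wt replicate 3) and Rfc5 by 0.35 ± 0.10 (edgeR adjusted p = 0.0118) on the log2 scale in Stat5b-/- cells. In Stat5a-/- cells they had -0.21 ± 0.12 and -0.27 ± 0.10 and were not called (edgeR adjusted p = 0.205 and 0.0555). Rfc5 was called lower there with DESeq2, RLE normalization, only the 2 genotypes compared, without Stat5b-/- replicate 1 or 3 and with the GC offset (-0.34, edgeR adjusted p = 0.00707). Between the knockout lines the differences were 0.63 ± 0.12 (edgeR adjusted p = 0.00151) and 0.61 ± 0.10 (edgeR adjusted p = 0.00044).

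Rfc2, which shares 15.1% of its exon bases with Lat2, fell in Stat5b-/- cells (log2 -0.34 ± 0.10, edgeR adjusted p = 0.0119, lost without wt replicate 3). In Stat5a-/- cells it had -0.25 (edgeR adjusted p = 0.0584) with no overlap of the libraries, and passed with DESeq2 and with the GC offset (-0.30, edgeR adjusted p = 0.00807) among others. Rfc1, the large subunit that opens the clamp, fell in Stat5a-/- cells (-0.37 ± 0.10, edgeR adjusted p = 0.0143). Rfc4 spread from 30.0 to 44.9 CPM in Stat5b-/- libraries and was not called, but without Stat5b-/- replicate 1 it was, between the knockout lines (0.51, edgeR adjusted p = 0.0129) and in Stat5a-/- against wt (-0.39, edgeR adjusted p = 0.0232). Per length, the ratio of Rfc5 to Rfc2 averaged 0.341 ± 0.0209 over the 3 wt libraries (SD), 0.337 ± 0.0179 over those of Stat5a-/- and 0.547 ± 0.0413 over those of Stat5b-/- cells, and that of Rfc3 to Rfc2 was 0.383 ± 0.0239, 0.394 ± 0.0453 and 0.643 ± 0.0652. These ratios were also chosen after the values were seen. Pcna, the clamp itself, measured 220, 218 and 251 CPM in wt, 235, 255 and 234 in Stat5a-/- and 173, 211 and 214 in Stat5b-/- libraries. It was not called with edgeR on all libraries, though the difference between the knockout lines, -0.27 (edgeR adjusted p = 0.0658), passed with DESeq2 and with the GC offset (-0.34, edgeR adjusted p = 0.00845).

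Of the single-strand binding trimer, Rpa1 rose in Stat5b-/- cells, with 158, 163 and 153 CPM beside 133, 127 and 126 in wt and 121, 116 and 130 in Stat5a-/- libraries. The difference from wt was 0.29 ± 0.09 on the log2 scale (edgeR adjusted p = 0.0159), which was lost without wt replicate 2 or 3 or Stat5b-/- replicate 1 or 2, and that from Stat5a-/- was 0.37 ± 0.09 (edgeR adjusted p = 0.00676). Rpa2, the subunit phosphorylated in the cell cycle, measured 196, 203 and 199 CPM in wt, 148, 140 and 134 in Stat5a-/- and 138, 160 and 169 in Stat5b-/- libraries. It was lower than wt in every knockout library, by 0.36 ± 0.10 in Stat5b-/- (edgeR adjusted p = 0.00912) and 0.50 ± 0.10 in Stat5a-/- cells (edgeR adjusted p = 0.00129) on the log2 scale. The large and the middle subunit of the trimer thus moved in opposite directions in the Stat5b-/- line, and Rpa3 was not called.

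Lig1, which seals Okazaki fragments, measured 292, 274 and 286 CPM in wt, 237, 241 and 247 in Stat5a-/- and 289, 290 and 276 in Stat5b-/- libraries. It fell in Stat5a-/- cells by 0.23 ± 0.08 on the log2 scale (edgeR adjusted p = 0.0481), a call lost without any 1 of 7 libraries, all but Stat5a-/- replicate 3 and Stat5b-/- replicate 1. Fen1, the flap nuclease, had between 12 and 26 reads in a library, and its change was not detectable at these counts. Of its exon bases, 84.2% are shared with Gm10143 and Tmem258, whose reads were dropped, so that its level is not that of the gene.

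**Figure D3:**
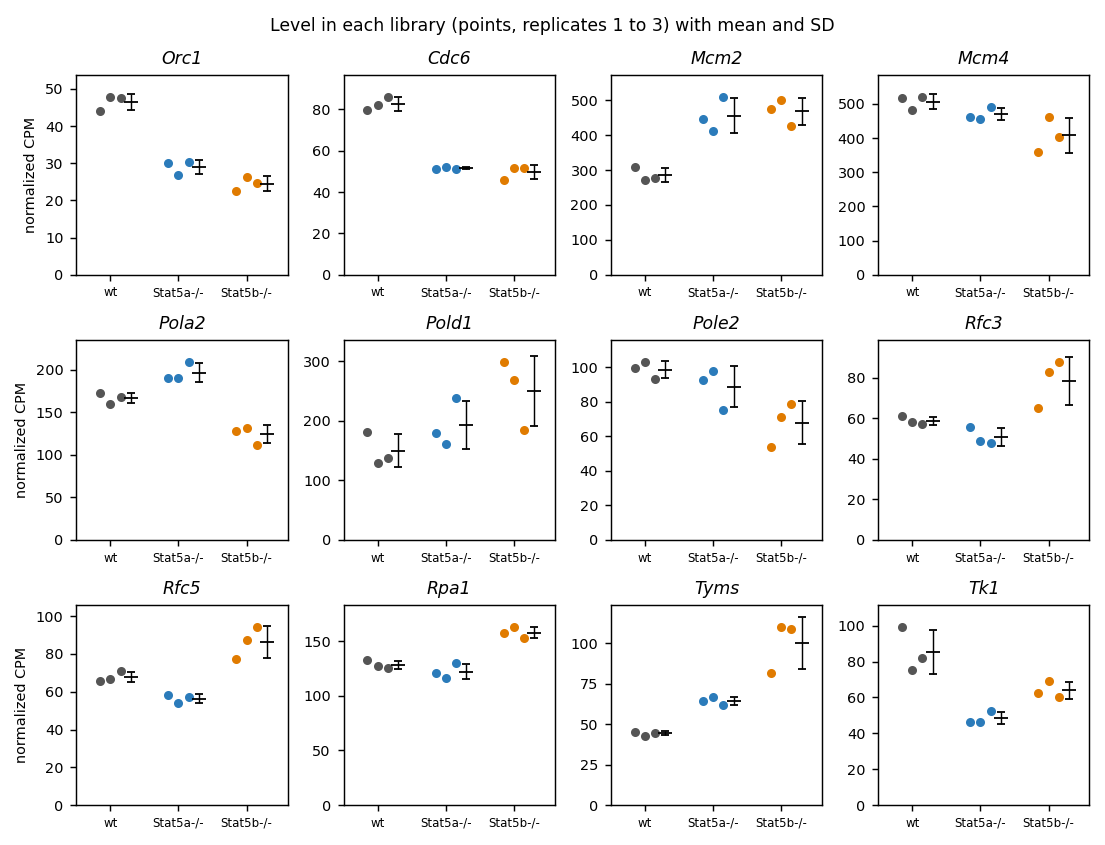
Normalized CPM (vertical axes, from 0) of 12 members in each library, points in the order of replicates 1 to 3 of wt, Stat5a-/- and Stat5b-/-, with the mean and SD of the line beside them. Orc1 and Cdc6 are lower and Mcm2 and Tyms higher in all knockout libraries, whereas Pola2, Rfc3 and Rfc5 place wt between the knockout lines.

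The enzymes that make thymidine nucleotides moved in opposite directions. Tyms, thymidylate synthase (ENSMUSG00000025747.12, chr5:30058202-30073617), measured 45.3, 42.9 and 44.7 CPM in wt, 64.6, 66.9 and 61.9 in Stat5a-/- and 81.5, 110 and 109 in Stat5b-/- libraries. The 3 lines formed separate steps. Tyms was 2.26-fold higher in Stat5b-/- (log2 1.17 ± 0.12, edgeR adjusted p = 3.76e-06) and 1.46-fold higher in Stat5a-/- cells (log2 0.54 ± 0.12, edgeR adjusted p = 0.0028) than in wt. It was also higher in Stat5b-/- than in Stat5a-/- cells, by 0.63 ± 0.12 (edgeR adjusted p = 0.00115).

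Tk1, thymidine kinase, which phosphorylates salvaged thymidine (ENSMUSG00000025574.13, chr11:117815526-117826092), measured 99.2, 75.1 and 82.0 CPM in wt, 46.4, 46.5 and 52.6 in Stat5a-/- and 62.4, 69.4 and 60.1 in Stat5b-/- libraries. Its lines did not overlap either, with Stat5a-/- lowest. The log2 fold change was -0.82 ± 0.12 (edgeR adjusted p = 0.000127) in Stat5a-/- and -0.42 ± 0.12 (edgeR adjusted p = 0.0116) in Stat5b-/- cells, the latter lost without wt replicate 1. Between the knockout lines it was 0.40 ± 0.12 (edgeR adjusted p = 0.0212), lost without Stat5a-/- replicate 1 or 2 or Stat5b-/- replicate 2. Within a library, Tyms per length was 0.39, 0.487 and 0.466 of Tk1 in wt, 1.19, 1.23 and 1.01 in Stat5a-/- and 1.12, 1.35 and 1.55 in Stat5b-/- libraries. The order of the enzymes' transcripts was thus inverted in all 6 knockout libraries. This ratio was also chosen after the values were seen. It sets the largest rise in Stat5b-/- over the largest fall in Stat5a-/- cells, so a separation from wt follows from the choice.

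Ribonucleotide reductase makes all deoxynucleotides, and its members Rrm1 and Rrm2 were not called in either line. Rrm2, its small subunit, measured 584, 569 and 602 CPM in wt, 550, 580 and 567 in Stat5a-/- and 609, 681 and 610 in Stat5b-/- libraries, with log2 fold changes of 0.11 ± 0.09 and -0.05 ± 0.09. Rrm1 had -0.01 ± 0.12 and -0.17 ± 0.12 in Stat5b-/- and Stat5a-/- cells. Per length, Rrm2 was the most abundant of the 40 transcripts in each line, at 627 ± 30.3 TPM in wt, 522 ± 9.15 in Stat5a-/- and 689 ± 55.3 in Stat5b-/- cells, beside a median member of 82.4 TPM in wt. Apart from Fen1, Gins3 was the least abundant, at 9.67 ± 0.478 TPM in wt.

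Genes of the same pathways outside the 40 were read from further lists. Of 30 other replication genes, 5 were higher (16.7%, beside 24.2% of all genes) and 6 lower (beside 22.0%) in Stat5b-/- cells. In Stat5a-/- cells 3 were higher (10.0%, beside 19.8%) and 5 lower (16.7%, beside 16.3%). Pole4, a histone-fold subunit of polymerase epsilon, measured 22.8, 27.4 and 24.9 CPM in wt, 47.9, 41.2 and 39.4 in Stat5a-/- and 51.6, 51.8 and 58.7 in Stat5b-/- libraries, with log2 fold changes of 1.11 and 0.78 (edgeR adjusted p = 5.64e-06 and 0.000165). Its partner Pole3 fell in Stat5b-/- cells (-0.66, edgeR adjusted p = 0.00325). Orc2, of the same complex as Orc1, fell in both lines, by 0.85 and 0.47 (edgeR adjusted p = 0.000678 and 0.0327). Orc3 (-0.14 and -0.11), Orc4 (-0.03 and -0.21) and Orc5 (0.16 and -0.10), of that complex too, were called in neither line. Recql4 fell in Stat5b-/- cells (-0.67, edgeR adjusted p = 0.00279), while Top2a and Topbp1 were called higher in them.

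Among 30 other genes of nucleotide synthesis, 13 were lower (43.3%, beside 22.0% of all genes) and 5 higher (16.7%, beside 24.2%) in Stat5b-/- cells, and 12 were lower (beside 16.3% of all genes) and 2 higher (6.67%, beside 19.8%) in Stat5a-/- cells. The purine genes named next, other than Adsl, were chosen after their values were seen. Gart, Pfas, Adsl, Ppat and Gmps were each lower in both lines, with log2 fold changes from -0.66 to -0.36 in Stat5b-/- and from -0.58 to -0.37 in Stat5a-/- cells. Atic, the last enzyme of that route, fell in Stat5b-/- cells (-0.25, edgeR adjusted p = 0.0405) and had -0.11 in Stat5a-/- cells, while Paics (-0.35 and -0.28), Adss (0.08 and -0.08), Prps1 (-0.20 and -0.23) and Prps2 (-0.20 and 0.19) were called in neither. Pyrimidine genes were mixed. Dhodh and Umps fell, at -0.67 and -0.49 in Stat5b-/- and -0.86 and -0.46 in Stat5a-/- cells, Cad was called in neither line (-0.26 and -0.06), Ctps fell in Stat5b-/- cells (-0.30, edgeR adjusted p = 0.0277) and Ctps2 rose in them (0.66, edgeR adjusted p = 0.00388). Impdh1, which commits purines to guanine nucleotides, went against them, with 38.0, 28.4 and 34.5 CPM in wt, 174, 171 and 261 in Stat5a-/- and 190, 167 and 125 in Stat5b-/- libraries. On the log2 scale Impdh1 rose by 2.26 in Stat5b-/- and 2.59 in Stat5a-/- cells (edgeR adjusted p = 8.31e-07 and 2.86e-07), larger than that of any of the 40 members, while its paralog Impdh2 was not called.

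Enzymes next to Tyms and Tk1 were mixed. Dctd, which makes the substrate of Tyms from dCMP, fell by 1.01 in Stat5b-/- and 0.46 in Stat5a-/- cells on the log2 scale (edgeR adjusted p = 1.79e-06 and 0.00153). Shmt1, of the folate cycle that feeds Tyms, fell by 0.74 and 0.45 (edgeR adjusted p = 5.83e-05 and 0.00316). Dck, the deoxycytidine kinase of salvage, rose by 0.73 and 0.50 (edgeR adjusted p = 0.000122 and 0.0026), and the mitochondrial kinase Tk2 rose by 0.79 in Stat5b-/- cells (edgeR adjusted p = 0.000137). Tyms thus rose while Dctd, Shmt1 and Tk1 fell. Rrm2b, the reductase subunit induced by p53, fell in Stat5a-/- cells (-0.69, edgeR adjusted p = 0.000551), and Dctpp1, which clears dCTP, fell in Stat5b-/- cells (-0.69, edgeR adjusted p = 0.000845).

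Regulators of the step into S phase covered a wider range, from -3.21 to 1.42 in Stat5b-/- and from -2.34 to 1.11 in Stat5a-/- cells. Of 31 cyclins, E2F and pocket protein genes, 9 were higher (29.0%, beside 24.2% of all genes) and 10 lower (32.3%, beside 22.0%) in Stat5b-/- cells. In Stat5a-/- cells 5 were higher (16.1%, beside 19.8%) and 11 lower (35.5%, beside 16.3%). Ccnd1, the D-type cyclin that starts Rb phosphorylation, fell from 66.9 to 87.8 CPM in wt to 12.8 to 19.5 in Stat5a-/- and 6.93 to 10.0 in Stat5b-/- libraries (log2 -2.34 and -3.21, edgeR adjusted p = 2.86e-07 and 1.92e-08). Ccnd3, the most abundant D-type cyclin transcript here by CPM, went the other way, from 1453 to 2079 CPM in wt to 2919 to 4270 in Stat5a-/- and 2269 to 3335 in Stat5b-/- libraries (log2 0.94 and 0.69, edgeR adjusted p = 0.00133 and 0.00789). Myc fell by 1.93 in Stat5b-/- and 0.55 in Stat5a-/- cells (edgeR adjusted p = 5.29e-08 and 0.00287). The activator E2f2 rose by 1.42 and 1.11 (edgeR adjusted p = 1.33e-05 and 0.000138), while E2f1 was not called and the activator E2f3 fell by 0.26 and 0.43 (edgeR adjusted p = 0.0376 and 0.00318). The repressor E2f6 fell by 0.80 in Stat5b-/- and 1.41 in Stat5a-/- cells (edgeR adjusted p = 4.3e-05 and 3.28e-07). Among other repressors of the family, E2f7 rose by 0.73 in Stat5b-/- cells (edgeR adjusted p = 0.000143) and had 0.20 in Stat5a-/- cells (edgeR adjusted p = 0.192). E2f8 rose by 0.61 and 0.97 (edgeR adjusted p = 0.0023 and 7.54e-05). E2f4 and E2f5, repressors on the same list, are not described here, so not every repressor is covered. Rb1 rose by 0.96 and 0.55 (edgeR adjusted p = 7.97e-05 and 0.00657). Cdkn2c, an inhibitor of Cdk4 and Cdk6, rose by 0.91 in Stat5b-/- cells (edgeR adjusted p = 1.8e-05) and had a log2 fold change of -0.19 in Stat5a-/- cells (edgeR adjusted p = 0.216), and the direct difference between the lines was 1.10 (edgeR adjusted p = 6.88e-06).

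In chromatin assembly and mitosis no gene passed a fold of 2 against wt. Of 16 genes that assemble chromatin at the fork, 1 was higher (6.25%, beside 24.2% of all genes) and 5 lower (31.2%, beside 22.0%) in Stat5b-/- cells, and 3 were higher (18.8%, beside 19.8%) and 3 lower (18.8%, beside 16.3%) in Stat5a-/- cells. Chaf1b, a subunit of the histone chaperone that binds Pcna, fell by 0.65 and 0.51 (edgeR adjusted p = 0.000184 and 0.00153), and Asf1b rose by 0.60 and 0.40 (edgeR adjusted p = 9.33e-05 and 0.0027). Hells, a chromatin remodeller, fell in Stat5b-/- cells (-0.91, edgeR adjusted p = 0.000416), and Uhrf1, which guides maintenance methylation, rose in Stat5a-/- cells (0.90, edgeR adjusted p = 0.000463). Of 20 mitosis genes, 4 were higher (beside 24.2% of all genes) and 0 lower (beside 22.0%) in Stat5b-/- cells, and 5 were higher (25.0%, beside 19.8%) and 1 lower (5.0%, beside 16.3%) in Stat5a-/- cells. Mki67, the marker of cycling cells, rose by 0.70 and 0.47 (edgeR adjusted p = 0.00141 and 0.0204).

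**Figure D4:**
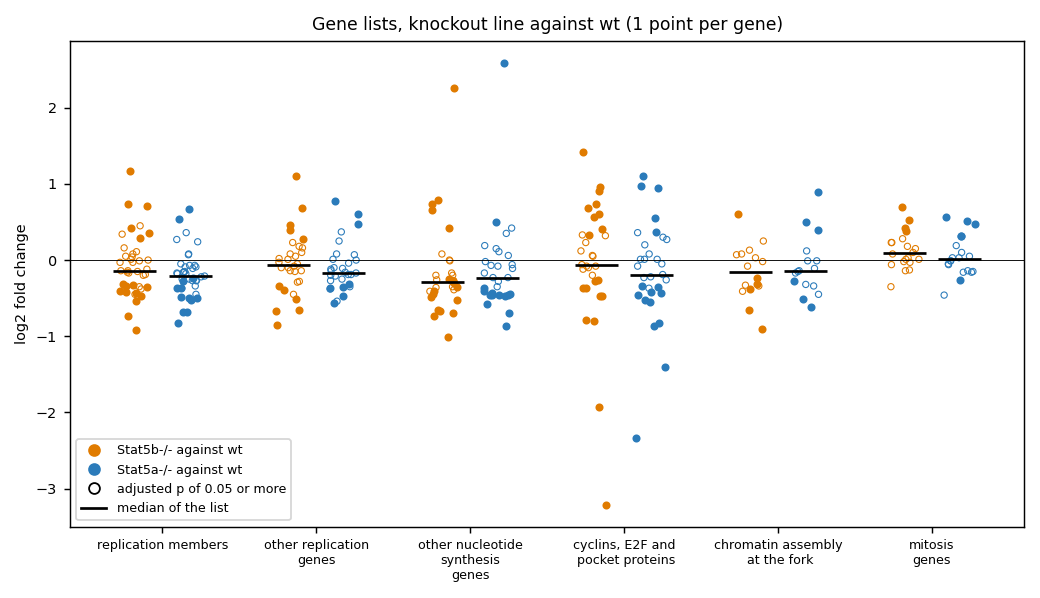
Log2 fold change (vertical axis) of each gene of 6 lists in the Stat5b-/- and the Stat5a-/- line against wt, 3 libraries each; filled points passed an adjusted p of 0.05 and bars mark the median of a list. The 40 members lie between -0.92 and 1.17, whereas Impdh1 of nucleotide synthesis (2.26 and 2.59) and Ccnd1 (-3.21 and -2.34) lie far outside that range.

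The T cell transcripts moved with the lines, and 17 of 18 markers were called higher than in wt in Stat5b-/- cells (beside 24.2% of all genes) and 9 in Stat5a-/- cells (beside 19.8%). With the log2 summed level of these markers as a covariate, the share of all genes called in either direction went from 46.2% to 10.0% in Stat5b-/- against wt, from 36.0% to 23.4% in Stat5a-/- against wt and from 33.9% to 14.8% between the knockout lines. Of the members, 2 stayed called in Stat5b-/- against wt, Mcm2 (1.25 ± 0.27, edgeR adjusted p = 0.0145) and Tyms (1.55 ± 0.33, edgeR adjusted p = 0.0121). The other 15 calls were lost. Orc1 then had -0.76 ± 0.30 (edgeR adjusted p = 0.138) and Cdc6 -0.67 ± 0.27 (edgeR adjusted p = 0.143), close to their values without the covariate. For others the fold change itself moved, for Pola2 from -0.43 to -0.10 and for Mcm10 from -0.41 to -0.15. The sign turned for Tk1 (-0.42 to 0.35), Pold2 (-0.47 to 0.14), Mcm4 (-0.31 to 0.23) and Rfc2 (-0.34 to 0.09), none of them called with the covariate. In Stat5a-/- against wt Orc1, Cdc6, Mcm2 and Tyms stayed called, and between the knockout lines Pola2, Pole, Rfc3, Rfc5, Rpa1, Tyms and Tk1 did. Since the summed level did not overlap between the lines, the line and the T cell transcripts cannot be told apart in these libraries.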

How the data were processed

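The authors trimmed the reads with Trimmomatic, mapped 50 bp single-end reads of poly(A) RNA (Lexogen SENSE kit) with STAR at default settings to the mouse primary assembly of GENCODE M13 (GRCm38) and counted exon reads per gene with featureCounts 1.5.1, without a strand option. The deposited values are raw counts for 50686 genes in each of 9 libraries. By the counter's defaults, reads on more than 1 gene or place were dropped. Antisense and overlapping genes are therefore uncertain.

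Symbols were matched for 50376 genes. Samples were grouped by their titles and genotypes. TMM normalization and all tests used edgeR 4.0.16 under R 4.3.3 (quasi-likelihood test on all 9 libraries, filterByExpr, 13852 genes, Benjamini-Hochberg adjustment), with a call at an adjusted p under 0.05 and calls above a fold of 2 counted beside. Standard errors were derived from the log2 fold change and the F statistic. The steps were tested on simulated counts. Depth was 11948136 to 19016396 reads per library, and since no molecular identifiers were used, reads may come from the same molecule.

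The members and all lists were chosen with earlier results of these data known. All members could be named; values in full were given for the 4 largest falls and rises of each comparison among called members whose libraries did not overlap, for the lowest and highest member of each role, and for further members that had a call. From each other list, up to 3 of the largest called rises and falls against wt were eligible, with Myc and the E2f genes. The purine and pyrimidine genes other than Adsl and Dhodh were added after their values were seen. Promoters came from RefSeq (GRCm38.p6). Alternatives were DESeq2 1.42.0, RLE normalization, no filter or a mean of at least 10 counts, 2 genotypes per fit, each library left out, the replicate block, a GC offset (loess, span 0.5), both together, the T cell covariate and the fold limit. The human data of the study were not analysed here.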

Additional observations from a re-analysis of the deposited data

Results flagged for a closer look

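For 9 members the response to the knockouts differed between the lines by the direct test, Stat5b-/- against Stat5a-/-, on the log2 scale. Tyms and Rfc3 were each 0.63 higher in Stat5b-/-, Rfc5 0.61, Pole 0.43, Tk1 0.40, Rpa1 0.37 and Lig1 0.24. Pola2 was 0.67 lower (-0.67) and Pole2 0.39 lower (-0.39). The difference of Lig1 (edgeR adjusted p = 0.0461) and that of Pole2 (edgeR adjusted p = 0.0494) lay at the threshold. The call of Lig1 was lost in each of the 9 fits that left out 1 library, and that of Pole2 in all but those without Stat5a-/- replicate 3 or Stat5b-/- replicate 3. With 3 libraries in a line, no single library was tested for standing apart.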

How the results depend on the processing

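Of the log2 fold changes of all 40 members in the 3 comparisons under the alternatives, 1987 values stayed on their side of the threshold, with no called value turned, 81 passed it newly, 88 no longer passed it and 4 reversed. The reversed ones were Mcm4 (0.23), Pold2 (0.14), Rfc2 (0.09) and Tk1 (0.35) in Stat5b-/- against wt with the T cell covariate. That covariate left 2 higher and 0 lower members in Stat5b-/- against wt (median 0.05), beside 5.21% and 4.84% of all genes in that fit. It left 2 lower in Stat5a-/- against wt and 1 lower between the knockout lines, beside 10.9% and 8.47% of all genes. Of the 127 genes of the other lists it left 4 higher and 3 lower, 10 and 9, and 8 and 5. The shares of all genes not yet given were 12.5% higher in Stat5a-/- against wt and 6.33% higher between the knockout lines. Main counts of these lists were 24 and 34 (18.9% and 26.8%), 18 and 32 (14.2% and 25.2%), and 18 and 16 (14.2% and 12.6%). All genes had 24.2% and 22.0%, 19.8% and 16.3%, and 16.4% and 17.5%. The covariate adds a term that follows the line, which widens the errors. Calls kept in each of the 17 other fits, the fold limit left aside, numbered 10 of 17, 9 of 13 and 6 of 9. In Stat5b-/- against wt they were Orc1, Cdc6, Mcm2, Mcm10, Pola2, Pold1, Pole2, Rfc5, Rpa2 and Tyms. In Stat5a-/- against wt they were Orc1, Cdc6, Mcm2, Mcm10, Cdc45, Rfc1, Rpa2, Tyms and Tk1. Between the knockout lines they were Pola2, Pole, Rfc3, Rfc5, Rpa1 and Tyms.

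The GC offset gave 19 lower members in Stat5a-/- against wt, or 18 with the replicate block (beside 22.0% and 19.8% of all genes), and 11 higher and 4 lower between the knockout lines (beside 23.8% and 19.8% of all genes in that fit), where 31 genes of the other lists were higher; the cause was not tested. With a fold above 2 required, 1 higher and 0 lower members were left in Stat5b-/- against wt and 0 in either direction in the other comparisons. With only the 2 genotypes compared, 1 member was lower between the knockout lines, beside 16.4% of all genes.

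The replicate numbers paired no libraries: deviations from the line means correlated at -0.0877 on average in the 9 pairs that share a number and at 0.0438 in the 18 others. The replicate block gave 6 higher and 10 lower, 2 and 9, and 6 and 1 members in the 3 comparisons, beside 41.5%, 31.1% and 28.1% of all genes in either direction.

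Leaving out 1 library gave 4 to 6 higher and 7 to 13 lower members in Stat5b-/- against wt (4 and 7 without wt replicate 3), 2 higher and 7 to 16 lower in Stat5a-/- against wt (7 without wt replicate 2 or 3) and 5 to 11 higher and 1 to 2 lower between the knockout lines (11 without Stat5b-/- replicate 1). The shares of all genes moved too, from 19.6% to 24.0% higher and 18.0% to 24.1% lower, from 15.6% to 20.7% and 12.4% to 18.4%, and from 11.6% to 16.3% and 14.5% to 17.6%. Medians ranged from -0.19 to -0.06, from -0.25 to -0.20 and from 0.07 to 0.21. In the other lists the counts ranged from 18 to 24 higher and 25 to 41 lower, from 13 to 21 and 21 to 41 (21 lower without wt replicate 3), and from 11 to 25 and 12 to 16 (11 higher without Stat5b-/- replicate 2). Few reads limit Fen1 and Gins3, with 12 to 26 and 82 to 208 in a library. Those of Fen1 leave out the 84.2% of its exon bases shared with other genes.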
